A study of Mus musculus with 24 samples.

Results

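The Hox cluster genes were followed in mouse myoblasts that carried a knockdown (KD) of 1 of 3 SWI/SNF chromatin remodeling subunits. They are the 39 gene symbols of the count table made of Hox, a cluster letter from a to d and a paralog number, out of 55291 symbols, so membership rests on the symbol alone. RNA was sequenced from 4 populations of C2C12 cells, an immortalized mouse myoblast line, each in 3 treatments with 2 independent replicates, which gives 24 libraries. The control population carried a scrambled shRNA (scr), and the others shRNA against *Baf180* (gene symbol *Pbrm1*), a subunit of the PBAF complex, against *Baf250a* (*Arid1a*), a subunit of the canonical BAF complex, or against *Brd9*, a subunit of the non-canonical BAF complex. Each population was left without added metal (NT) or was given 100 µM CuSO4 or 50 µM ZnSO4 for 48 h. The treatment was taken from the sample titles, which the columns of the count table repeat, while a separate treatment tag named the same treatment in 8 of the 24 libraries only. The labels call the cells primary myoblasts, and the study's methods name the C2C12 line. According to those methods all 4 populations were made with lentivirus and kept in puromycin, so scr shares both with the KDs. The methods describe a stable population, and alternative shRNAs are listed for each subunit without saying which the sequenced cells carried. Loss of a subunit and any other trait of its KD cells cannot be told apart.

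Hox genes encode homeodomain transcription factors that tell cells where they lie along the head-to-tail axis and along the limb. They sit in 4 clusters, and within a cluster the genes with low paralog numbers are used early and in anterior regions while those with high numbers are used late and in posterior or distal regions. Polycomb complexes hold unused Hox genes silent, trithorax proteins and SWI/SNF remodelers counteract them, and myoblasts from different muscles keep the Hox pattern of their origin in culture.

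The targeted transcript was at its lowest in the matching KD. Levels are given as CPM, read-pair counts scaled to the same library total with factors set over all 24 libraries. *Pbrm1* lay between 99.9 and 227 CPM in the 6 scr libraries and between 42.2 and 75.7 in *Baf180* KD, *Arid1a* between 266 and 308 in scr and between 92 and 144 in *Baf250a* KD, and *Brd9* between 27.2 and 32.4 in scr and between 13.8 and 17.9 in *Brd9* KD. The libraries held 12719173 to 75179394 counts, except for replicate 2 of *Baf250a* KD with Zn, which held 495778, where 1 read pair is worth about 1.94 CPM (the level of *Hoxa4* there). The myoblast factor *Myod1* was present in every population (67.6 to 115 CPM in scr). Of 12 myoblast markers, 10 averaged over 1 CPM in scr, *Baf180* KD and *Brd9* KD and 8 in *Baf250a* KD, and none was at 0 throughout a population. The 4 populations differed in marker genes. The summed level of the myoblast list was 3470 to 5060 CPM in scr, 2330 to 2550 in *Baf180* KD, 1720 to 1870 in *Baf250a* KD and 2420 to 2940 in *Brd9* KD. That of 10 fibroblast markers was 37.1 to 54.8 in scr, 113 to 142 in *Baf180* KD, 226 to 258 in *Baf250a* KD and 82.6 to 119 in *Brd9* KD, with 5 of the 10 over 1 CPM in each and with *Lum* at 0 in scr and *Brd9* KD and *Thy1* at 0 in the others. That of 7 smooth muscle markers was 2010 to 3020 in scr, 2500 to 3740 in *Baf180* KD, 6960 to 8080 in *Baf250a* KD and 1850 to 2900 in *Brd9* KD, with 5 over 1 CPM in each and none at 0. For 10 differentiated muscle genes the sums were 79.4 to 113, 123 to 174, 63.3 to 78.8 and 37.8 to 45.4 in scr, *Baf180*, *Baf250a* and *Brd9* KD, and for 6 neural genes 67.1 to 114, 12 to 15.5, 7.78 to 13.6 and 59.4 to 83.2, with *Sox10* at 0 in all but *Brd9* KD. Of the differentiated muscle genes 7, 10, 8 and 7 averaged over 1 CPM, but of the neural genes only 1 in each population. The sums of 6 endothelial and of 6 immune genes were at most 7.01 and 6.22 in any library, with *Cdh5* and *Emcn* at 0 in *Baf250a* and *Brd9* KD and *Cd3e* at 0 in all 3 KDs. Several of these lists differed between the populations compared below, not all in the same direction, and their part in the Hox results was not tested. In bulk RNA, fewer cells of a type and less RNA per cell cannot be told apart.

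The myoblasts used HoxA and HoxC and left HoxB and HoxD nearly silent. In scr the HoxC genes on chromosome 15 summed to 214 ± 12 CPM (SD, n = 6) and the HoxA genes on chromosome 6 to 94.1 ± 4.56 CPM, while the HoxB genes on chromosome 11 summed to 0.388 ± 0.276 CPM and the HoxD genes on chromosome 2 to 0.0221 ± 0.0275 CPM. Over all 24 libraries HoxC held 66.2% to 76.4% of the Hox counts, HoxA 23.6% to 33.6%, HoxB at most 1.28% and HoxD at most 0.0211%. The 76.4% and 23.6% are of the library of 495778 counts, and the others held at most 70.7% HoxC and at least 28.9% HoxA. All 11 HoxA genes and all 9 HoxC genes passed the filter on low counts over the 24 libraries, against 2 of 10 HoxB genes (*Hoxb3* and *Hoxb4*) and 0 of 9 HoxD genes, so 22 of the 39 members passed. *Hoxb1*, *Hoxd1*, *Hoxd8*, *Hoxd9* and *Hoxd10* had no count in any library, which allows a level of up to 0.0053 CPM each (3 counts over the pooled libraries, counting error only). Of the other 12 members that did not pass, *Hoxb6* had the most counts, 56 over 20 libraries, followed by *Hoxb5* with 45 and *Hoxb9* with 24. *Hoxd3* and *Hoxd4* share 62.3% and 52.3% of their exon bases with other genes, where a read pair could be left uncounted, and each had 1 count.

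**Figure D1:**
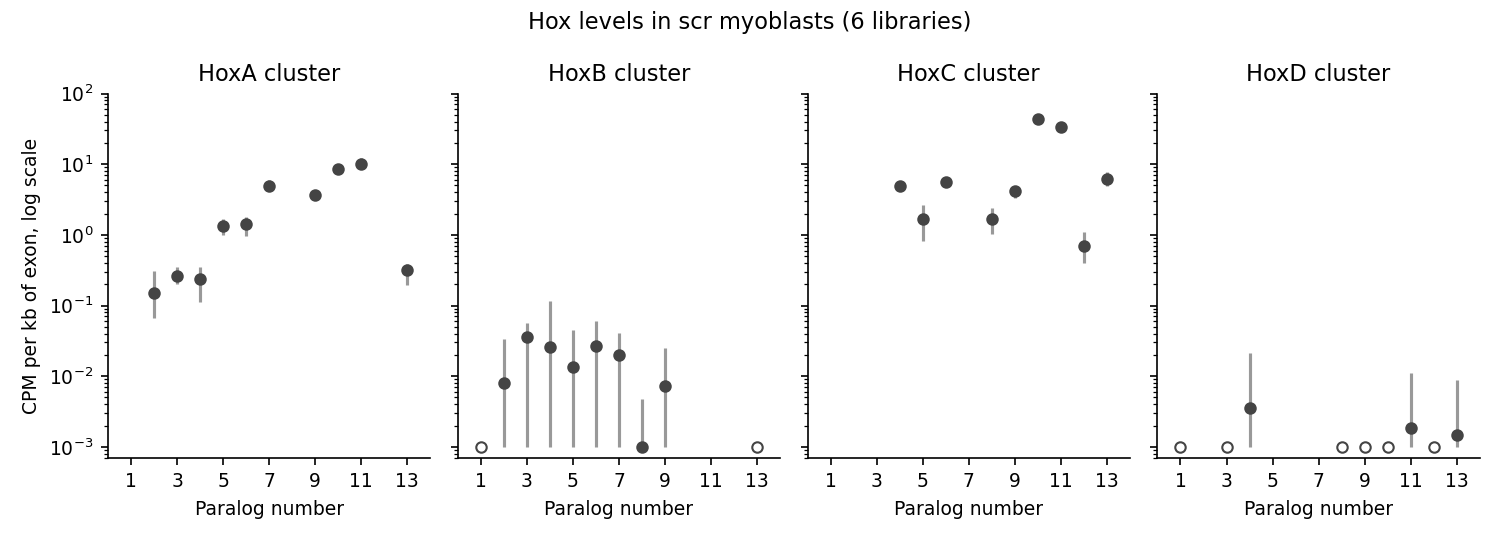
Level of Hox genes in the 6 scr libraries, as CPM per kb of exon on a log axis, against paralog number, 1 panel for each cluster. Points are means and bars run from the lowest to the highest library, and open circles drawn at the bottom mark genes with no count in scr. The HoxC peak at paralogs 10 and 11, the broad rise of HoxA towards paralog 11 and the near absence of HoxB and HoxD can be seen.

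Among the 22 members that passed, the level per kb of exon in scr was highest at paralogs 10 and 11 in both clusters in use. *Hoxc10*, a posterior gene of hindlimb and lumbosacral levels, was at 43.9 ± 3.53 CPM per kb (SD, n = 6) and *Hoxc11* at 33.5 ± 3.98, and their ranges overlapped. The next gene, *Hoxa11*, was at 10.2 ± 1.31 CPM per kb, below all values of *Hoxc10* and *Hoxc11*. *Hoxa10* followed at 8.65 ± 0.627 CPM per kb, and its range overlapped that of *Hoxa11*. *Hoxc13*, *Hoxc6*, *Hoxa7*, *Hoxc4*, *Hoxc9* and *Hoxa9* formed a middle group between 6.15 and 3.61 CPM per kb, in which neighbours overlapped except *Hoxc4* and *Hoxc9*. *Hoxc5* and *Hoxc8* stood at 1.7 CPM per kb each, *Hoxa6* at 1.43, *Hoxa5* at 1.33 and *Hoxc12* at 0.699. *Hoxa13*, the most 5′ gene of HoxA, was at 0.322 CPM per kb, near *Hoxa3* at 0.26, *Hoxa4* at 0.238 and *Hoxa2* at 0.149. *Hoxb3* and *Hoxb4* were lowest of the 22, at 0.0358 and 0.0258 CPM per kb. *Hoxc10* and *Hoxc5* share 166 exon bases, and *Hoxa2* and *Hoxa3* share 15% and 8% of their exon bases with a predicted transcript, so their levels are less certain.

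The 250 bases upstream of the start are shown for a member of each state in the untreated cells, chosen after the values were seen. *Hoxb4* went from no count in scr to a measurable level in 2 KDs, *Hoxa5* was expressed in scr and higher in the same KDs, and *Hoxd8* had no count anywhere. The windows are from RefSeq on GRCm38.p6, in the direction of the gene, and CG pairs are in capitals: chr11:96318017-96318266 on the + strand for *Hoxb4*, chr6:52204588-52204837 on the - strand for *Hoxa5* and chr2:74704365-74704614 on the + strand for *Hoxd8*.
Hoxb4: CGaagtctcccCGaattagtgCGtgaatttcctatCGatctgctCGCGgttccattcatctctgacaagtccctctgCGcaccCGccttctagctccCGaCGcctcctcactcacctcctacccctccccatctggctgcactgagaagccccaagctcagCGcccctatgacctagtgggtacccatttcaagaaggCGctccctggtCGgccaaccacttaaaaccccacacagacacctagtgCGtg
Hoxa5: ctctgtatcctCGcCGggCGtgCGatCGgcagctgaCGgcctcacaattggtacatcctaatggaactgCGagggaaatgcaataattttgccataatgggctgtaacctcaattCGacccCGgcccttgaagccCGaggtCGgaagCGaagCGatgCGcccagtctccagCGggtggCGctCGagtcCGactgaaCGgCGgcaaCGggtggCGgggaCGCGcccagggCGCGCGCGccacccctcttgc
Hoxd8: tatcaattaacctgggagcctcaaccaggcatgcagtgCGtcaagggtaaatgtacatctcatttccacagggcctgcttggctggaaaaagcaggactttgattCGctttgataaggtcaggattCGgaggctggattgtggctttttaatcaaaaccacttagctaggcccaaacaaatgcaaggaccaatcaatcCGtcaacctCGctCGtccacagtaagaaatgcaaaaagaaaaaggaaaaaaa
The windows of *Hoxb4*, *Hoxa5* and *Hoxd8* held 14, 28 and 6 CG pairs and were 58.0%, 63.6% and 44.4% G or C. A window was found for 22 of the 39 members (24 windows), with a median of 12.5 CG pairs against 6 over all 32851 windows of 27025 genes. *Hoxb3*, *Hoxc6*, *Hoxc9* and *Hoxc13* are among the members without one. Every HoxD member had a window, while *Hoxc4* was the only HoxC member with one. The *Hoxc4* window lay 15461 bases from the annotated gene start. Windows of *Hoxd4*, *Hoxa10*, *Hoxa9* and *Hoxa7* lay 10049, 5915, 3719 and 3281 bases from theirs. In *Hoxc4* and *Hoxa3* all 250 bases of the window were exon. Both strands were searched for short motifs, each on its own, so matches can overlap. The E-box CANNTG was in 17 of the 24 member windows against 66.2% of all windows, CCAAT in 14 against 33.8%, AGGTCA, the unit of retinoic acid receptor sites, in 6 against 14%, TATAAA in 4 against 12.4%, the metal response core TGCACNC or TGCGCNC in 3 against 21.4%, the Pbx-Hox site TGATTNAT in 2 against 2.82% and the Cdx site TTTATGG in 1 against 2.43%. *Hoxb4* held 1 AGGTCA, 1 metal response core and 1 E-box, *Hoxa5* held 1 metal response core, 1 CCAAT and 2 E-boxes, and *Hoxd8* held 1 AGGTCA, 1 CCAAT and 1 E-box. Such matches describe these windows and do not show binding.

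Summed over all members, the Hox RNA was 309 ± 15.1 CPM in scr (SD, n = 6), 373 ± 25.7 in *Baf180* KD, 372 ± 29.7 in *Baf250a* KD and 326 ± 4.38 in *Brd9* KD. The 6 libraries of *Baf180* KD (339 to 401 CPM) lay above the 6 of scr (282 to 326), while those of *Brd9* KD (320 to 331) overlapped scr. Of *Baf250a* KD (321 to 403) only the library of 495778 counts lay within the scr range, at 321 CPM from 165 Hox counts, and the other 5 (355 to 403) lay above it. HoxC made the largest part in each population, at 254 ± 18.9, 265 ± 15.7 and 220 ± 5.08 CPM in the 3 KDs. The HoxB sum was 2.95 ± 1.1 CPM in *Baf180* KD, 1.18 ± 0.715 in *Baf250a* KD and 0.808 ± 0.367 in *Brd9* KD, and in *Baf180* KD all 6 values (2.05 to 5.08) lay above the scr maximum of 0.83. Below the filter, *Hoxb9* was at 0.0412 to 0.436 CPM in *Baf180* KD (16 counts) and at 0 to 0.0637 in scr (3 counts), and *Hoxb6* at 0.0448 to 0.23 in *Baf180* KD (21 counts), 0.0712 to 0.337 in *Brd9* KD (19 counts) and 0 to 0.119 in scr (9 counts). The HoxD sum averaged at most 0.0276 CPM in any population, and was 0 in all 6 libraries of *Brd9* KD.

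In untreated *Baf180* KD the Hox genes that differed from scr were higher, and most were central genes. Genes with an adjusted p under 0.05 in edgeR's quasi-likelihood test are called. Of the 22 members tested, 11 were called and all 11 were higher, where 41.0% of all 14851 genes were called and 21.7% were called higher. The median log2 fold change of the members was 0.71, against 0.03 over all genes. By paralog number 2 of 4 anterior genes (1 to 3), 8 of 9 central genes (4 to 8) and 1 of 9 posterior genes (9 to 13) were called. *Hoxb4*, *Hoxb3*, *Hoxa2* and *Hoxa4* passed the filter through the KD libraries only, so a difference was built into their being tested.

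*Hoxb4*, a central gene known from hematopoietic stem cells, had the largest fold change of the members in *Baf180* KD. It lies at chr11:96318267-96321638 on the + strand. In untreated cells it was at 0 in both scr libraries and at 1.12 and 1.28 CPM in *Baf180* KD (56 counts), at least 14.9-fold higher (against 3 counts over the scr group, adjusted p = 0.000264). Over all treatments it ran from 0 to 0.296 CPM in scr with a median of 0.0185, and from 0.82 to 3.34 CPM in *Baf180* KD with a median of 1.12. The 2 ranges did not overlap, and the highest value was that of replicate 1 with Zn, whose partner was the lowest. Its neighbour *Hoxb3* was at 0.191 and 0.186 CPM in untreated scr and at 1.25 and 1.56 in *Baf180* KD, a log2 fold change of 2.89 ± 0.52 (SE, adjusted p = 0.00117). All 6 *Baf180* KD libraries (0.806 to 1.56 CPM) lay above all 6 scr libraries (0 to 0.237 CPM) for *Hoxb3*.

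The called HoxA genes of *Baf180* KD were *Hoxa3*, *Hoxa5*, *Hoxa6* and *Hoxa7*, a run inside the cluster. *Hoxa5*, a gene of cervical and upper thoracic patterning, was at 2.36 and 1.86 CPM in untreated scr and at 5.6 and 6.34 in *Baf180* KD, a log2 fold change of 1.53 ± 0.26 (adjusted p = 0.00074). *Hoxa3*, which acts in the pharyngeal region, was at 2.1 and 1.63 CPM in scr and at 4.35 and 4.73 in *Baf180* KD, a log2 fold change of 1.31 ± 0.28 (adjusted p = 0.00335). Both replicates of the KD were above both of scr for each gene. *Hoxa6* rose by 1.06 ± 0.34 on the log2 scale (adjusted p = 0.0255) and *Hoxa7* by 0.51 ± 0.14 (adjusted p = 0.0131). *Hoxa4*, which lies inside this run, was at 0.63 ± 0.25 CPM (SD, n = 2) against 0.386 ± 0.0856 and was not called (log2 fold change 0.73 ± 0.54). The log2 fold change of *Hoxa2* was 1.5 ± 0.62, and those of the posterior *Hoxa9*, *Hoxa10*, *Hoxa11* and *Hoxa13* were 0.23 ± 0.13, 0.26 ± 0.12, 0.34 ± 0.13 and 0.85 ± 0.39, none of them called.

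In HoxC the called genes of *Baf180* KD ran from *Hoxc4* to *Hoxc9*. *Hoxc6*, a thoracic and forelimb-level gene, was at 13.7 and 11.8 CPM in untreated scr and at 24.6 and 27.7 in *Baf180* KD, a log2 fold change of 1.06 ± 0.15 (adjusted p = 0.000209). *Hoxc9*, which marks thoracic levels, was at 10.9 and 10.8 CPM in scr and at 16.6 and 17.9 in *Baf180* KD, a log2 fold change of 0.68 ± 0.15 (adjusted p = 0.00382). The replicates of each group lay close together and the groups were apart for *Hoxc6* and *Hoxc9*. *Hoxc5* rose by 1 ± 0.24 on the log2 scale, *Hoxc8* by 0.94 ± 0.25 and *Hoxc4* by 0.49 ± 0.15. *Hoxc10* and *Hoxc11*, the most abundant Hox transcripts, had log2 fold changes of 0.23 ± 0.1 (adjusted p = 0.0904) and -0.02 ± 0.1 (adjusted p = 0.899), and *Hoxc12* and *Hoxc13* of -0.05 ± 0.45 and 0.17 ± 0.17. Leaving out replicate 2 of untreated *Baf180* KD gave 5 calls, and *Hoxa3*, *Hoxa5*, *Hoxb3*, *Hoxb4* and *Hoxc6* were called whichever of the 4 libraries was left out.

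**Figure D2:**
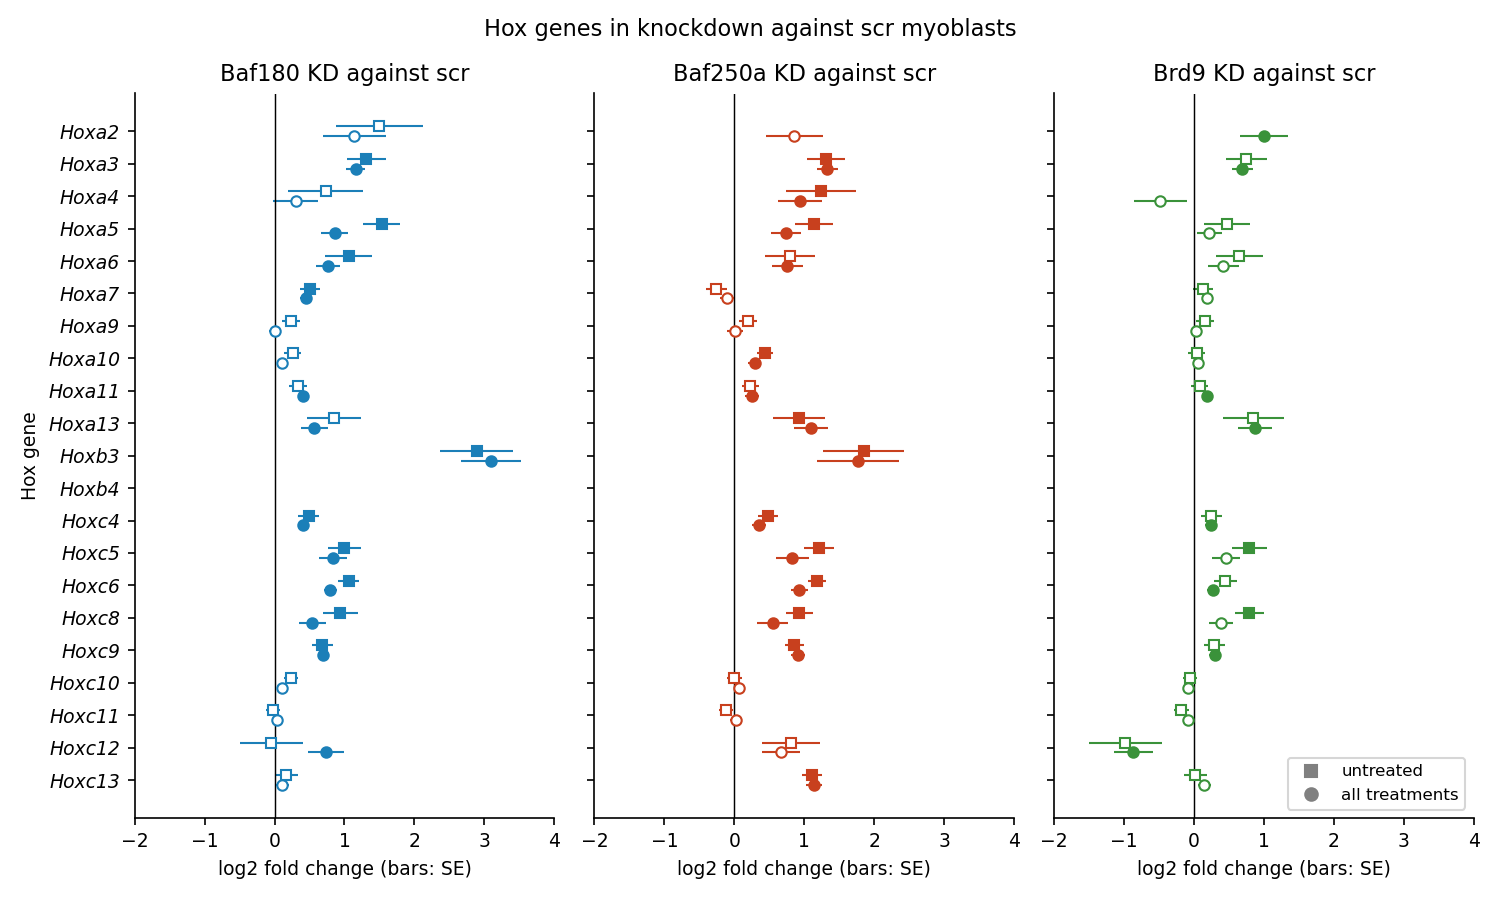
Log2 fold change of tested Hox genes in *Baf180*, *Baf250a* and *Brd9* KD against scr, with 1 panel for each KD. Squares are the untreated cells (2 against 2 libraries), circles are all treatments (6 against 6), bars are SE and filled symbols are called. *Hoxb4* is left out because scr was at 0 in the untreated cells. In *Baf180* KD the filled squares gather between *Hoxa3* and *Hoxa7* and between *Hoxc4* and *Hoxc9*, and in *Baf250a* KD they reach *Hoxa13* and *Hoxc13*.

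In untreated *Baf250a* KD the Hox genes that differed from scr were also higher, in all 3 paralog groups. Of 21 members tested, 14 were called and all 14 were higher, where 57.8% of all 14971 genes were called and 28.9% were called higher. The median log2 fold change was 0.93 for the members and 0 for all genes. All 3 anterior genes tested, 7 of 9 central genes and 4 of 9 posterior genes were called. *Baf250a* KD shares its scr libraries with the comparison of *Baf180* KD, so their counts are not independent.

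The posterior gene *Hoxc13*, known for its role in hair and nails, set *Baf250a* KD apart. It was at 13.5 and 18.1 CPM in untreated scr and at 34.9 and 33.7 in *Baf250a* KD, a log2 fold change of 1.11 ± 0.14 (adjusted p = 3.04e-05). Over all treatments it ran from 12.2 to 19.3 CPM in scr (median 13.8) and from 24.4 to 40.8 CPM in *Baf250a* KD (median 34.3), and from 13.3 to 19.7 CPM in *Baf180* KD and 15.3 to 18.5 in *Brd9* KD. All 6 libraries of *Baf250a* KD were above all 18 others. *Hoxa13* was at 0.956 and 0.836 CPM in scr and at 1.74 and 1.65 in *Baf250a* KD, a log2 fold change of 0.93 ± 0.37 (adjusted p = 0.0475).

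*Hoxb4* was at 0.929 and 0.612 CPM in untreated *Baf250a* KD (37 counts), at least 9.75-fold above the 0 counts of scr (adjusted p = 0.000361). *Hoxb3* was at 0.813 and 0.565 CPM, a log2 fold change of 1.85 ± 0.58 (adjusted p = 0.0152). *Hoxb4*, *Hoxb3* and *Hoxa4* passed the filter through the KD libraries only. *Hoxc6*, at 28.6 and 28.9 CPM in *Baf250a* KD, rose by 1.18 ± 0.13 on the log2 scale (adjusted p = 9.78e-06), and *Hoxc9*, at 19.9 and 19.5 CPM, by 0.86 ± 0.14 (adjusted p = 0.000181). For *Hoxc6* and *Hoxc9* both KD libraries lay above both scr libraries, which were at most 13.7 and 10.9 CPM. *Hoxa3* rose by 1.31 ± 0.27, *Hoxa4* by 1.24 ± 0.5, *Hoxa5* by 1.14 ± 0.27, *Hoxa10* by 0.44 ± 0.12, *Hoxc4* by 0.48 ± 0.14, *Hoxc5* by 1.21 ± 0.22 and *Hoxc8* by 0.93 ± 0.19. *Hoxa7*, called higher in *Baf180* KD, was at 11.3 ± 0.714 CPM (SD, n = 2) here against 13.5 ± 0.531 in scr and was not called (log2 fold change -0.26 ± 0.15). The other members not called were *Hoxa6* (0.8 ± 0.36), *Hoxa9* (0.2 ± 0.13), *Hoxa11* (0.23 ± 0.12), *Hoxc10* (0 ± 0.11), *Hoxc11* (-0.12 ± 0.1) and *Hoxc12* (0.81 ± 0.42). Leaving out replicate 1 or replicate 2 of untreated *Baf250a* KD gave 6 or 9 calls, and *Hoxa4*, *Hoxa13* and *Hoxb3* were called in 0 of the 4 fits without a library.

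In untreated *Brd9* KD only *Hoxc5* and *Hoxc8*, central genes on either side of *Hoxc6*, were called among the 18 members tested. Both were higher, where 29.2% of all 14277 genes were called and 15.1% were called higher. *Hoxc8*, which patterns the thoracic region, was at 4.78 and 4.13 CPM in scr and at 7.01 and 8.17 in *Brd9* KD, a log2 fold change of 0.79 ± 0.21 (adjusted p = 0.0264). *Hoxc5* was at 5.99 and 4.13 CPM in scr and at 7.49 and 9.72 in *Brd9* KD, a log2 fold change of 0.79 ± 0.25 (adjusted p = 0.0449). The log2 fold changes of the other 16 members ran from -0.98 (*Hoxc12*, SE 0.52) to 0.85 (*Hoxa13*, SE 0.43), with a median over all 18 of 0.27 against 0.01 over all genes. *Hoxb4* had 7 counts in *Brd9* KD, at least 2.57-fold above scr, and did not pass the filter there. No member was called by DESeq2, nor by edgeR without replicate 2 of untreated scr or without either replicate of untreated *Brd9* KD.

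The same comparisons over all treatments, 6 libraries against 6 with treatment as a term, gave more calls at a smaller median log2 fold change. In *Baf180* KD 15 of 22 members were called, all higher (41.3% of all genes called, 22.2% called higher), and in *Baf250a* KD 16 of 22, all higher (51.8% and 26.7%). In *Brd9* KD 7 of 20 were called higher and 1 lower (32.8% called, 16.4% higher and 16.4% lower). *Hoxb3* and *Hoxb4* passed this filter through the KD libraries only, in *Baf180* and *Baf250a* KD, and in the *Brd9* KD comparison *Hoxa2* passed it with 1 scr and 5 KD libraries over the filter's CPM. The median log2 fold change was 0.55, 0.8 and 0.21 for the members, and -0.02, 0 and 0 for all genes. Members gained with the added libraries included *Hoxa11*, *Hoxa13* and *Hoxc12* in *Baf180* KD (0.4 ± 0.07, 0.57 ± 0.19 and 0.74 ± 0.26) and *Hoxa6* and *Hoxa11* in *Baf250a* KD (0.76 ± 0.22 and 0.25 ± 0.1). Without 1 library, these 3 of *Baf180* KD were called in 12, 3 and 5 of 12 fits, and the 2 of *Baf250a* KD in 12 and 2 of 12. For *Hoxc12* the log2 fold change in untreated *Baf180* KD was -0.05 ± 0.45. In *Brd9* KD the higher members were *Hoxa2* (1 ± 0.34), *Hoxa13* (0.87 ± 0.24), *Hoxa3* (0.69 ± 0.15), *Hoxc9* (0.3 ± 0.08), *Hoxc6* (0.27 ± 0.09), *Hoxc4* (0.24 ± 0.08) and *Hoxa11* (0.19 ± 0.07), while *Hoxc5* (0.46 ± 0.2) and *Hoxc8* (0.39 ± 0.17) were not called. The lower member was *Hoxc12* (-0.87 ± 0.28, adjusted p = 0.0292), at 0.388 ± 0.132 CPM (SD, n = 6) in *Brd9* KD against 0.72 ± 0.254 in scr. Without replicate 2 of *Baf250a* KD with Zn, *Hoxc8* was no longer called in *Baf250a* KD (adjusted p = 0.0689) and the direction of every call was kept. In *Brd9* KD the count fell to 4 or 5 without replicate 1 of scr NT, replicate 1 of scr with Cu, or, in *Brd9* KD, replicate 2 of NT, either replicate with Cu, or replicate 2 with Zn.

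*Hoxa9*, a posterior gene called in none of these comparisons with scr, was at 20.2 ± 2.08 CPM (SD, n = 6) in scr, 20.5 ± 2.2 in *Baf180* KD, 18.3 ± 5.3 in *Baf250a* KD and 20.8 ± 0.758 in *Brd9* KD. The lowest of its 24 values, 7.78 CPM, was in the library of 495778 counts. Without any test, 7 of the 22 members had all 6 libraries of *Baf180* KD above all 6 of scr (14.9% of all genes), namely *Hoxa6*, *Hoxa7*, *Hoxb3*, *Hoxb4*, *Hoxc4*, *Hoxc6* and *Hoxc9*. In *Baf250a* KD it was also 7 (14.6%), among them *Hoxa3*, *Hoxa4*, *Hoxa6*, *Hoxc6*, *Hoxc9* and *Hoxc13*, and 12 without the library of 495778 counts (20.4%). In *Brd9* KD it was 0 of 20 (9.62%). No member had all 6 libraries of a KD below scr. The rank correlation of the log2 fold change over all treatments with the scr level, across genes, was -0.73 in *Baf180* KD (22 members), -0.72 in *Baf250a* KD (22) and -0.41 in *Brd9* KD (20), against -0.23 across all genes in each. A gene low in scr is tested only if the KD libraries carry it past the filter, as for *Hoxb3* and *Hoxb4*. Among members that at least 2 scr libraries put past the filter the correlation was -0.6, -0.65 and -0.32 (19 members each), against -0.11, -0.09 and -0.12 across all such genes. Both quantities use the same scr libraries, so part of a negative correlation is built in, and the genes of a cluster are not independent.

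**Figure D3:**
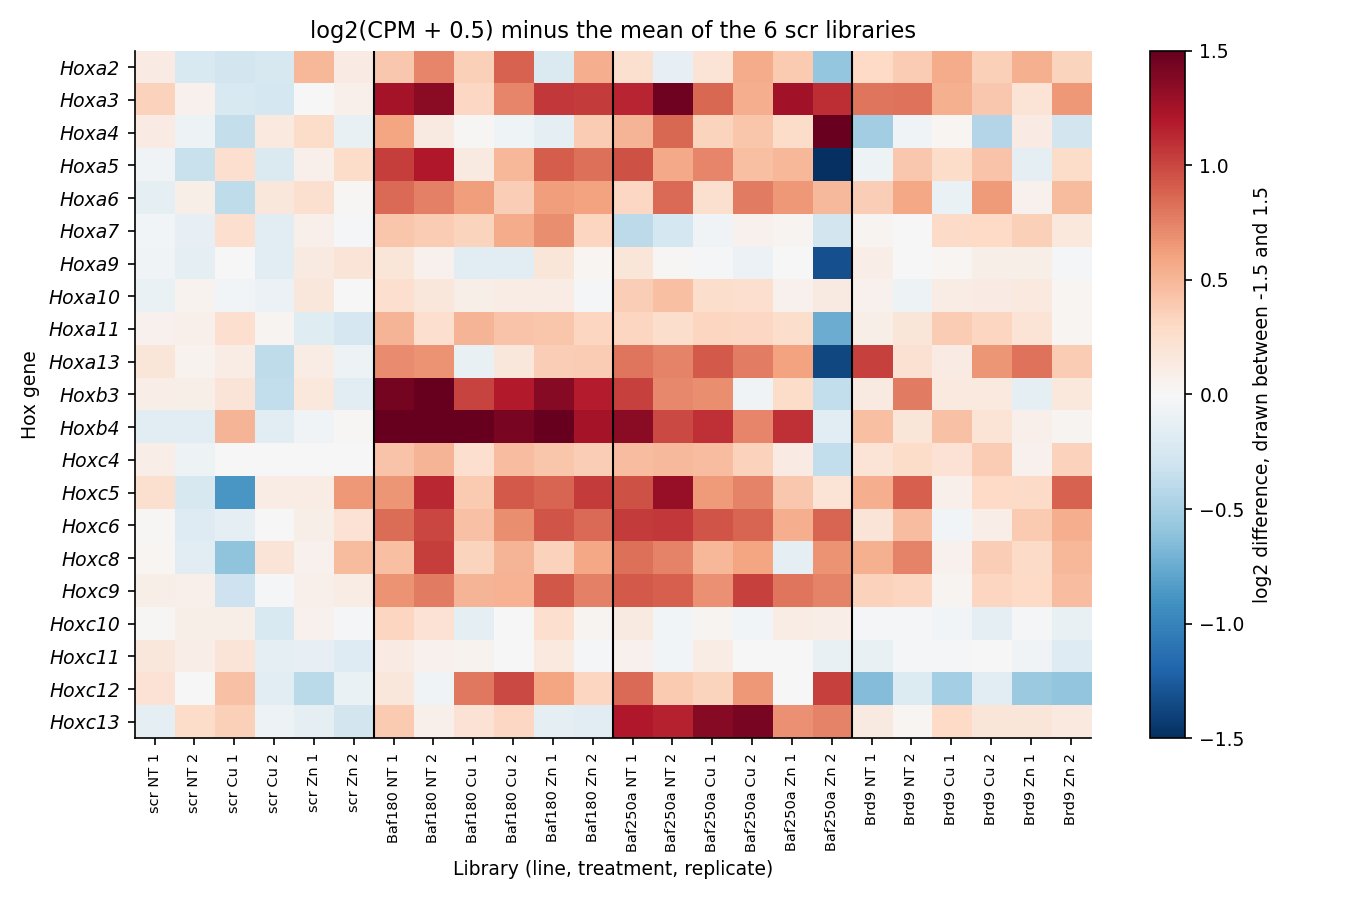
Level of 21 Hox genes that passed the filter (rows) in each of the 24 libraries (columns), as log2(CPM + 0.5) minus the mean of the 6 scr libraries, with red for higher and blue for lower and the scale drawn between -1.5 and 1.5. *Hoxb3* and *Hoxb4* are red in all 6 *Baf180* KD libraries, *Hoxc13* in all 6 *Baf250a* KD libraries, and the dark cells of the *Baf250a* Zn 2 column belong to the library of 495778 counts.

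The KDs were also set against each other, without the scr libraries. *Baf180* KD and *Baf250a* KD differed in 5 of 22 members, where 44.7% of all genes were called, 23.1% as higher in *Baf180* KD and 21.6% as lower. *Hoxb3* (1.26 ± 0.29), *Hoxb4* (0.93 ± 0.33) and *Hoxa7* (0.59 ± 0.09) were higher in *Baf180* KD, and *Hoxc13* (-1 ± 0.08, adjusted p = 1.18e-08) was among those higher in *Baf250a* KD. *Hoxc6*, *Hoxc5* and *Hoxc8* were not among the 5. Against *Brd9* KD, *Baf180* KD was higher in 10 of 22 members and lower in 0 (40.8% of all genes called, 20.4% higher), with *Hoxb4* (2.96 ± 0.42), *Hoxb3* (2.13 ± 0.29) and *Hoxc12* (1.61 ± 0.26) the largest. The filter asks for 2 libraries over a set CPM, and *Hoxb4* and *Hoxb3* reached it in 6 libraries of *Baf180* KD and in 0 and 1 of *Brd9* KD, so a difference was built into their being tested. The others were *Hoxa5*, *Hoxc6*, *Hoxa3*, *Hoxc9*, *Hoxa7*, *Hoxa11* and *Hoxc10*, between 0.61 and 0.16. *Baf250a* KD was higher than *Brd9* KD in 10 members and lower in 1 (54.1% of all genes called, 28.0% higher and 26.1% lower), with *Hoxb4* (1.93 ± 0.36), *Hoxc12* (1.52 ± 0.29), *Hoxa4* (1.44 ± 0.37) and *Hoxc13* (1.01 ± 0.09) among the largest. Here *Hoxb4* and *Hoxa4* passed through 4 and 6 libraries of *Baf250a* KD and 0 of *Brd9* KD, so the same holds for them. The lower member was *Hoxa7* (-0.3 ± 0.08, adjusted p = 0.00332). *Hoxb4* in *Brd9* KD, at 0.0736 to 0.264 CPM with a median of 0.139, lay within the range of scr (0 to 0.296 CPM). The top of that range was replicate 1 of scr with Cu (5 counts). All other scr libraries, at 0 to 0.0635 CPM, lay below those of *Brd9* KD.

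**Figure D4:**
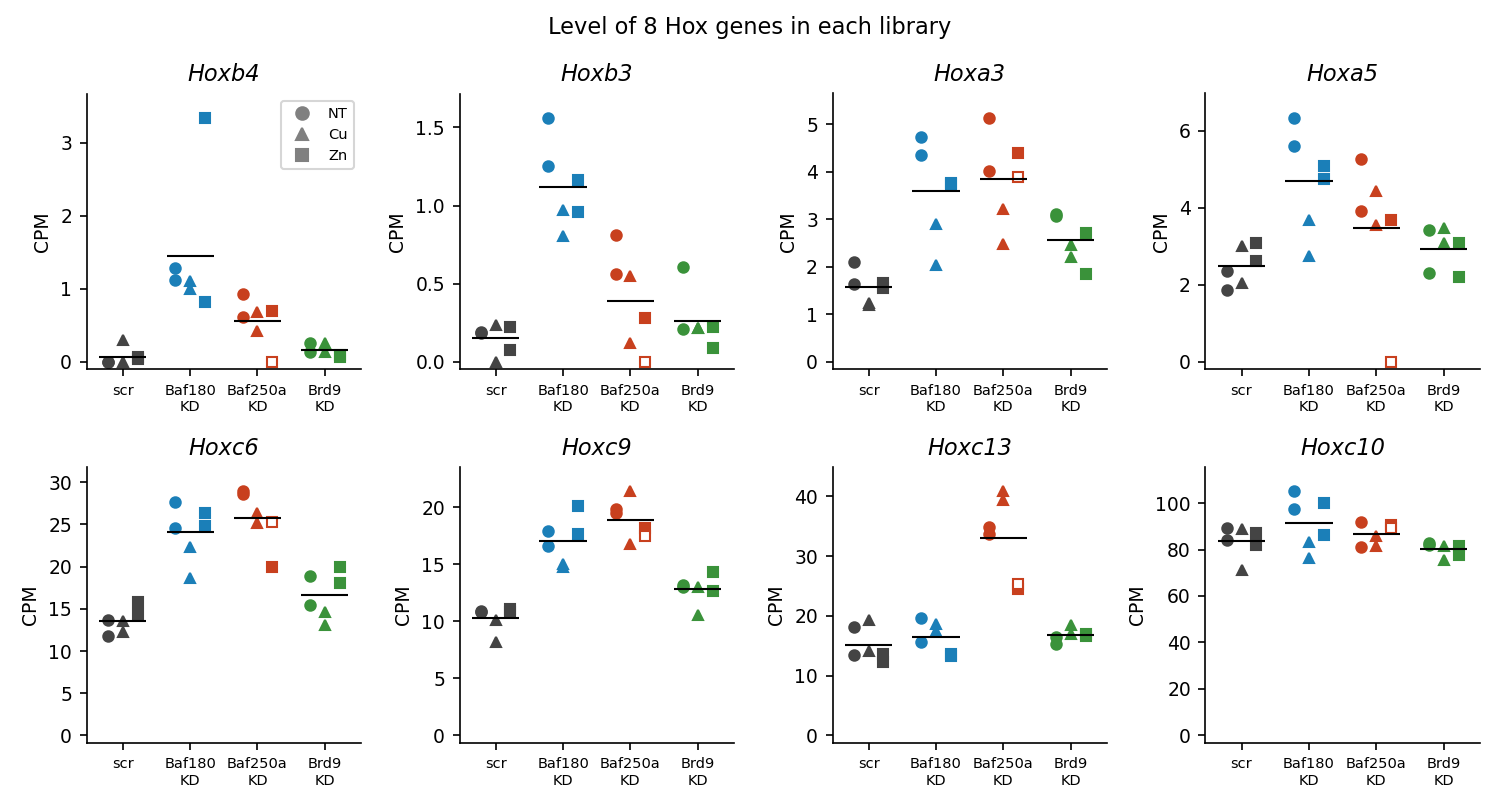
CPM of 8 Hox genes in every library, by population on the horizontal axis. Circles are NT, triangles Cu and squares Zn, horizontal lines are means of 6 libraries, and the open square is the library of 495778 counts. *Hoxb4* and *Hoxb3* stand out in *Baf180* KD, *Hoxc13* in *Baf250a* KD, and the means of *Hoxc10* lie between 80.1 and 91.3 CPM.

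The metal responses rest on the treatment in the sample titles, which the treatment tag matched in 2 of 6 libraries of scr, 2 of *Baf180* KD, 4 of *Baf250a* KD and 0 of *Brd9* KD. The metallothionein *Mt2*, a metal-binding protein induced by Zn, was at 190 to 198 CPM in the scr libraries titled Zn and at 18.2 to 29 in the other scr libraries. In the libraries titled Zn it was at 308 to 376 CPM in *Baf180* KD, 212 to 282 in *Baf250a* KD and 257 to 289 in *Brd9* KD, against at most 129, 130 and 96.3 CPM in the others. In each population both libraries titled Zn were thus above the other 4. Between Cu and NT the *Mt2* ranges lay closer, at 25 to 29 against 18.2 to 20.8 CPM in scr, 123 to 129 against 96.3 to 110 in *Baf180* KD, 120 to 130 against 106 to 109 in *Baf250a* KD and 95.4 to 96.3 against 58.9 to 66.1 in *Brd9* KD.

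In scr no member was called with either metal. With Cu 0 of 19 members were called in scr by edgeR (0.0333% of all genes), 0 had an unadjusted p under 0.05 and DESeq2 called 0. With Zn 0 of 19 were called (17.6% of all genes), although *Hoxa9* (0.35 ± 0.11) and *Hoxc6* (0.34 ± 0.14) had an unadjusted p under 0.05, and DESeq2 called 0. In *Brd9* KD the counts were 0 of 19 with Cu (0.274% of all genes, 3 at an unadjusted p under 0.05, 0 by DESeq2) and 0 of 19 with Zn (0.0334%, 0 and 0). In *Baf180* KD with Zn it was 0 of 22 (0.0197%, 1 and 0) and in *Baf250a* KD with Cu 0 of 21 (1.27%, 4 and 0). Fold changes come from a fit on the libraries of each comparison with its own scaling, so they can depart slightly from the ratio of the CPM.

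In *Baf180* KD with Cu 4 of 22 members were called (13.8% of all genes), of which *Hoxa3*, *Hoxa5* and *Hoxc10* were lower (8.30% of all genes called lower) and *Hoxc12* was higher (5.46%). *Hoxa5* was at 5.6 and 6.34 CPM in NT and at 2.76 and 3.68 with Cu (log2 fold change -0.92 ± 0.21, adjusted p = 0.0224), and the values with Cu lay near those of scr with Cu (3.02 and 2.05). *Hoxa3* was at 4.35 and 4.73 CPM in NT and at 2.04 and 2.89 with Cu (log2 fold change -0.91 ± 0.24, adjusted p = 0.0329), above scr with Cu (1.24 and 1.2). For *Hoxa3* and *Hoxa5*, then, the Cu libraries of *Baf180* KD were the lowest of that population. *Hoxc10* was at 105 and 97.4 CPM in NT and at 76.3 and 83.1 with Cu (-0.37 ± 0.09, adjusted p = 0.028), and *Hoxc12* at 0.852 and 0.659 in NT and at 1.57 and 1.89 with Cu (1.17 ± 0.35, adjusted p = 0.0496). *Hoxc12* was called in 0 of the 6 fits without a library (1.01 to 1.33), nor by DESeq2 or with the offset for GC content and length. The count was 1 without replicate 1 of untreated *Baf180* KD, 0 without replicate 2 of it and 0 without replicate 1 with Cu. In the test of the difference of the Cu responses of *Baf180* KD and scr no member was called (0 of 22 by edgeR, 12.8% of all genes, 2 at an unadjusted p under 0.05, 0 by DESeq2), and for *Hoxa5* the difference was -1.11 ± 0.4 (adjusted p = 0.0681).

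In *Baf250a* KD with Zn 4 of 21 members were called, all lower (15.9% of all genes called, 7.02% called lower), and all 4 were HoxC genes. *Hoxc8* was at 8.71 and 8.19 CPM in NT, and with Zn at 4.18 in replicate 1 and at 7.78 in replicate 2, where the latter rests on 4 counts (log2 fold change -0.96 ± 0.24, adjusted p = 0.00712). *Hoxc6* was at 28.6 and 28.9 CPM in NT and at 19.9 and 25.3 with Zn, the latter from 13 counts (-0.5 ± 0.14, adjusted p = 0.017). For *Hoxc8* and *Hoxc6* the deep Zn library was lower than the shallow one. *Hoxc5* was at 10.1 and 13.1 CPM in NT and at 6.76 and 5.83 with Zn (-0.78 ± 0.21, adjusted p = 0.0127), and *Hoxc13* at 34.9 and 33.7 in NT and at 24.4 and 25.3 with Zn (-0.49 ± 0.13, adjusted p = 0.0131). The 4 calls therefore rest on a single deep Zn library. Without replicate 2 with Zn 5 members were called, the 4 and *Hoxa10* (-0.36 ± 0.12, adjusted p = 0.0295), without replicate 1 with Zn 0, without replicate 1 of NT 2 and without replicate 2 of NT 1, and DESeq2 called 0.

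**Figure D5:**
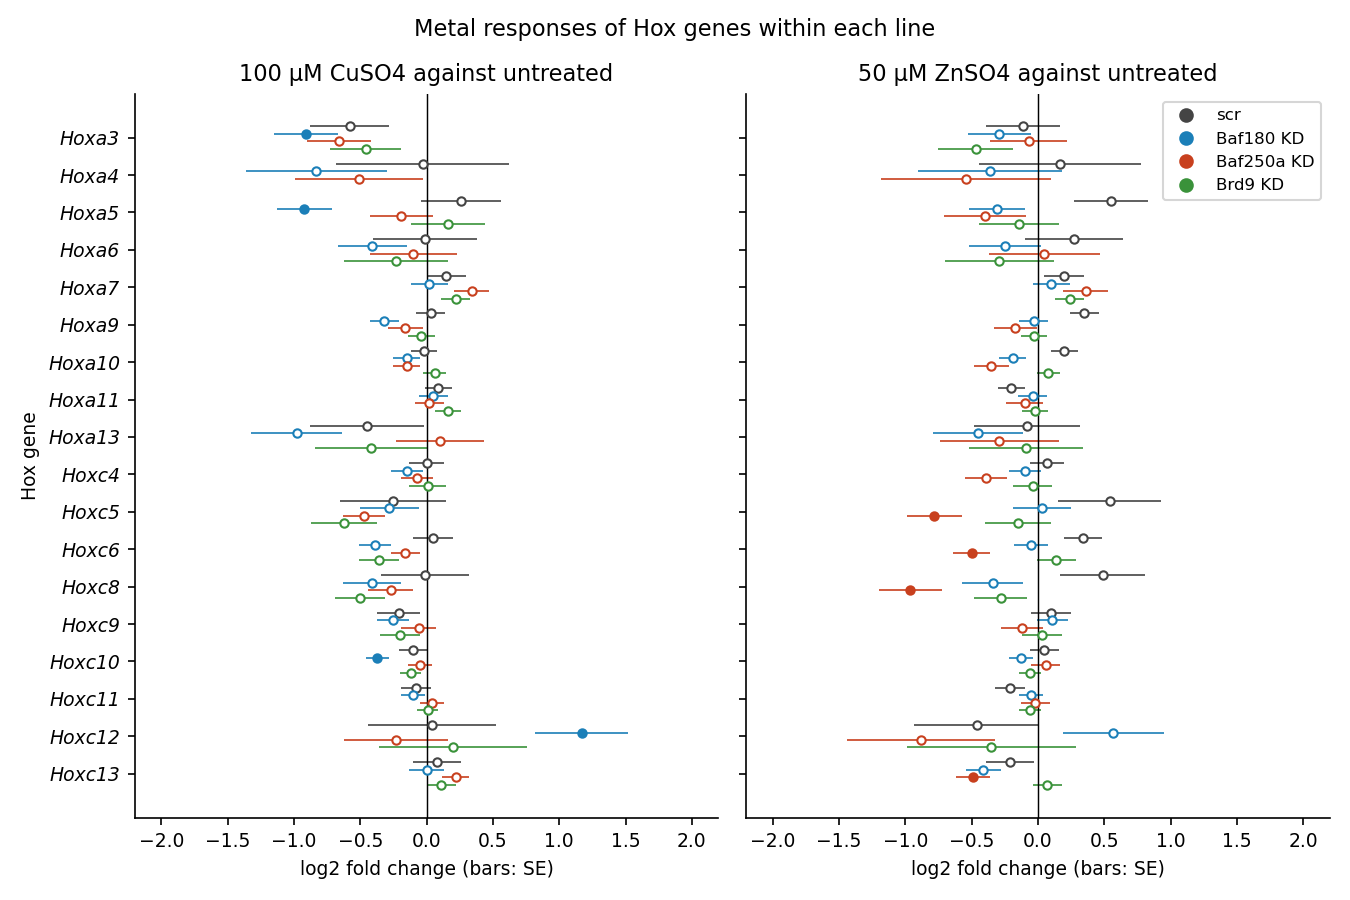
Log2 fold change of 18 Hox genes with 100 µM CuSO4 (left) or 50 µM ZnSO4 (right) against untreated cells of the same population, by colour for each population, with SE as bars and filled points for called genes. *Hoxa2*, *Hoxb3* and *Hoxb4*, which were not tested in scr, are left out, and *Hoxa4* has no point for *Brd9* KD, where it was not tested. The filled points are 4 of *Baf180* KD with Cu and 4 of *Baf250a* KD with Zn, and for *Hoxc5*, *Hoxc6* and *Hoxc8* the Zn responses of scr and *Baf250a* KD lie on opposite sides of 0.

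The response to Zn differed between *Baf250a* KD and scr for 3 of 22 members (30.5% of all genes called, 13.2% called lower). All 3 were lower, about the share of lower calls among genes in general. The difference of the log2 fold changes was -0.74 ± 0.2 for *Hoxc6* (adjusted p = 0.00725), -1.35 ± 0.41 for *Hoxc8* (adjusted p = 0.0158) and -0.45 ± 0.15 for *Hoxa10* (adjusted p = 0.0242), and without the library of 495778 counts these were -0.79 ± 0.2, -1.43 ± 0.41 and -0.46 ± 0.15 and still called. Leaving out each library in turn, the difference ran from -0.85 to -0.45 for *Hoxc6*, -1.53 to -0.54 for *Hoxc8* and -0.54 to -0.37 for *Hoxa10*. That of *Hoxa9*, not called with all libraries, ran from -1.75 to -0.37. The own responses to Zn of *Hoxc6*, *Hoxc8* and *Hoxa10* in scr were 0.34 ± 0.14, 0.49 ± 0.32 and 0.2 ± 0.1, and in *Baf250a* KD -0.5 ± 0.14, -0.96 ± 0.24 and -0.35 ± 0.13. In the other differences from scr edgeR called 0 of 22 members, namely *Baf180* KD with Zn (28.7% of all genes, 2 at an unadjusted p under 0.05, 1 by DESeq2), *Baf250a* KD with Cu (0.0121%, 0 and 0), *Brd9* KD with Cu (0.0363%, 0 and 0) and *Brd9* KD with Zn (11.1%, 1 and 0).

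Cofactors and regulators of Hox genes were counted from lists in the untreated comparisons with scr, where 21.7%, 28.9% and 15.1% of all genes were called higher in *Baf180*, *Baf250a* and *Brd9* KD. The 3 comparisons share the same 2 scr libraries, so a gene called in all 3 is not 3 independent results. Of the 9 TALE genes, homeodomain partners that bind DNA with Hox proteins, 1 was higher and 2 were lower in *Baf180* KD, 1 higher and 3 lower in *Baf250a* KD and 1 higher and 0 lower in *Brd9* KD. *Pknox1* was lower in *Baf180* KD (-0.38 ± 0.12) and *Baf250a* KD (-0.48 ± 0.12). The medians of the list were 0.1, 0 and 0.11 against 0.03, 0 and 0.01 over all genes. Of 12 PRC2 genes, which place the H3K27 methylation of silent Hox genes, 3, 6 and 3 were higher and 1, 2 and 0 lower in *Baf180*, *Baf250a* and *Brd9* KD, with medians of 0.24, 0.23 and 0.03. The core subunit *Suz12* was called higher in all 3 (0.75 ± 0.19, 0.66 ± 0.17 and 0.88 ± 0.22), and over all treatments in none (-0.2 ± 0.24, -0.03 ± 0.23 and 0.16 ± 0.21). Of 19 PRC1 genes, 7, 7 and 4 were higher and 2, 5 and 2 lower, with medians of 0.24, -0.05 and 0.19. *Cbx7* was higher in all 3 KDs (1.2 ± 0.19, 1 ± 0.18 and 0.74 ± 0.21) and also over all treatments (1.34 ± 0.1, 1.12 ± 0.11 and 0.76 ± 0.1). *Rnf2* and *Bmi1* were called higher in all 3 untreated KDs and *Cbx8* lower, but over all treatments *Rnf2* (0.72 ± 0.22) and *Bmi1* (0.5 ± 0.19) were called in *Baf250a* KD only and *Cbx8* (-0.33 ± 0.11) in *Brd9* KD only. Of 11 trithorax genes and H3K27 demethylases, 4, 3 and 3 were higher and 2, 5 and 1 lower, with medians of 0.15, -0.03 and 0.12. *Kmt2a*, the Mll methyltransferase that keeps Hox genes active, was called higher in all 3 (0.43 ± 0.11, 0.3 ± 0.1 and 0.43 ± 0.1), and over all treatments in *Brd9* KD only (0.17 ± 0.08, 0.14 ± 0.09 and 0.22 ± 0.06). The demethylase *Kdm6b* was lower in all 3 (-0.42 ± 0.1, -0.49 ± 0.1 and -0.46 ± 0.09) and also over all treatments (-0.48 ± 0.06, -0.38 ± 0.08 and -0.42 ± 0.05).

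Of the Cdx and retinoic acid genes, which act upstream of Hox clusters in the embryo, those called were retinoic acid genes. The Cdx genes did not pass the filter in *Baf180* and *Baf250a* KD and were not tested there, so a change in them cannot be judged. Of the 15 on the list, 9, 10 and 9 were tested in *Baf180*, *Baf250a* and *Brd9* KD, and 6, 8 and 2 were higher and 1, 1 and 2 lower, with medians of 0.74, 0.88 and 0.3. Over all treatments 7, 8 and 7 were higher and 0, 1 and 2 lower, where 22.2%, 26.7% and 16.4% of all genes were called higher. The receptor *Rarb* was at 0.305 ± 0.16 CPM (SD, n = 2) in scr, 4.03 ± 0.244 in *Baf180* KD, 5.53 ± 0.768 in *Baf250a* KD and 1.12 ± 0.349 in *Brd9* KD (log2 fold changes of 3.65 ± 0.42, 4.09 ± 0.37 and 1.83 ± 0.51). Like *Hoxb4*, *Rarb* passed the filter through the KD libraries only, so a difference was built into its being tested. *Dhrs3*, a retinaldehyde reductase, was at 6.25 ± 1.08 CPM in scr and at 35.5 ± 6.14, 76.1 ± 0.627 and 17.6 ± 1.76 in the 3 KDs (2.51 ± 0.17, 3.59 ± 0.14 and 1.5 ± 0.18). *Cyp26b1*, which breaks down retinoic acid, rose in untreated *Baf250a* KD (2.07 ± 0.21), and over all treatments in all 3 (0.8 ± 0.11, 2.08 ± 0.19 and 0.55 ± 0.16). Of 20 limb position genes 10, 10 and 9 were tested, and 5, 5 and 3 were higher and 1, 1 and 0 lower, with medians of 0.33, 0.53 and 0.15. *Tbx18* was higher in all 3 (1.19 ± 0.15, 1.78 ± 0.14 and 0.68 ± 0.17), and *Msx2* was lower in *Baf180* KD (-3.36 ± 0.43) and *Baf250a* KD (-2.47 ± 0.37) with a log2 fold change of 0.15 ± 0.26 in *Brd9* KD. In the *Baf180* KD comparison *Msx2* passed the filter through the scr libraries only, so there too a difference was built in.

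The genes beside the clusters were called in both directions. Of the 22 on the list 20 were in the table and 15 were tested, and 2, 3 and 2 were higher and 2, 4 and 3 lower in *Baf180*, *Baf250a* and *Brd9* KD, with medians of -0.06, -0.06 and -0.19. *Lnpk*, beside HoxD, was called higher in all 3 (0.56 ± 0.15, 0.53 ± 0.15 and 0.66 ± 0.15), and over all treatments in none (-0.26 ± 0.2, -0.04 ± 0.21 and 0.12 ± 0.15). *Mtx2*, on the other side of HoxD, was lower in *Baf180* KD (-0.36 ± 0.13) and *Baf250a* KD (-0.75 ± 0.12), and over all treatments in all 3 (-0.55 ± 0.09, -0.74 ± 0.1 and -0.33 ± 0.08). Of 15 non-coding transcripts of the clusters 3, 4 and 3 were tested and 0 were called in each. *Hotair*, transcribed from HoxC, was at 4.32 ± 0.984 CPM in scr and at 4.05 to 4.32 CPM on average in the KDs (SD at most 1.33, n = 6). *Hoxa11os*, antisense to *Hoxa11*, was at 13 ± 1.65 CPM in scr and at 19.4 ± 2.28 in *Baf180* KD over all treatments, where it was called higher (1 of 4 tested). In *Baf250a* KD over all treatments *Hoxaas2* was called higher (1 of 5), and in *Brd9* KD 0 of 3 were called.

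The clusters also hold microRNA genes, whose targets include Hox transcripts. The mature sequences from RefSeq (GRCm38.p6) are shown because one seed family sits only in the nearly silent clusters and the other spans silent and active ones. Bases 2 to 8, the seed that pairs with targets, are in capitals.
miR-10a-5p: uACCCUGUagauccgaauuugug
miR-10b-5p: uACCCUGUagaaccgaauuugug
miR-196a-5p: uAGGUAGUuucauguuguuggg
miR-196b-5p: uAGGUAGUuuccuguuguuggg
miR-615-3p: uCCGAGCCugggucucccucuu
The seed ACCCUGU is shared by miR-10a-5p of HoxB (chr11:96317186-96317208, + strand, upstream of *Hoxb4*) and miR-10b-5p of HoxD (chr2:74726074-74726096, + strand). The seed AGGUAGU is shared by miR-196a-5p, which is encoded in HoxB (chr11:96265187-96265208) and HoxC (chr15:102973365-102973386), and miR-196b-5p of HoxA (chr6:52230129-52230150, - strand), while CCGAGCC of miR-615-3p (chr15:103014969-103014990) is its own. Libraries of long RNA do not capture mature microRNAs, so counts here are of precursors or host transcripts. The rows of *Mir10a*, *Mir10b*, *Mir196a-1* and *Mir196b* held 0 counts in all 24 libraries. The HoxC rows *Mir196a-2* and *Mir615* held 117 counts in 22 libraries and 167 counts in 23. The microRNA rows with counts were thus both in HoxC, the cluster with the most Hox RNA, and *Mir196b* shares 85 exon bases with *Hoxa9*, where read pairs could be left uncounted.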

How the data were processed

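RNA from 24 libraries (4 populations, 3 treatments, 2 independent biological replicates) was depleted of ribosomal RNA and made into strand-specific libraries. Per the study's methods, the authors aligned read pairs to mm10 with STAR, kept uniquely mapped pairs and made counts per gene with featureCounts using strand. The deposited table holds these raw counts without normalization. The deposited DESeq2 tables of the authors' own comparisons (log2 fold changes, SE and p-values) were not used.

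CPM were computed as counts divided by the library size times its TMM factor over all 24 libraries. Each comparison was fitted to its own libraries in edgeR 4.0.16 (R 4.3.3, limma 3.58.1) with TMM and filterByExpr (minimum count 10, total 15). The quasi-likelihood test was used at its default prior count, with Benjamini-Hochberg adjustment over all genes tested and a threshold of 0.05. A prior count of 2 was used only for the log2 CPM behind the offset for GC content and length and the replicate correlations. Untreated comparisons used 2 libraries against 2. Comparisons over all treatments used 6 against 6 with treatment as a term, metal responses used the 6 libraries of a population, and differences of metal responses used all 24. Interaction calls test the difference itself. The scripts were tested on simulated data with 200 changed genes. Limits for 0 counts use 3 counts and cover counting error only. The SE of a log2 fold change was derived from the F statistic of its quasi-likelihood test, which includes the spread between replicates.

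Every member is in the counts and sums, with values for those that passed the filter, and some genes are not reported here by name. Of each list of other genes (TALE, PRC2, PRC1, trithorax and H3K27 demethylases, Cdx and retinoic acid, limb position, genes beside the clusters, non-coding transcripts) at most 4 were named, those with the largest mean change. The members and lists were chosen with earlier results of these data known. The annotation GENCODE M21 (GRCm38) gave exon lengths and GC content for 53290 of 55291 symbols. Alternatives were DESeq2 1.42.0, RLE size factors, 2 other filters on low counts (a mean of at least 10, or any count), an offset for GC content and length (splines of 5 degrees of freedom), all 24 libraries in 1 fit, the replicate number as a block, and leaving out each library.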

Additional observations from a re-analysis of the deposited data

Results flagged for a closer look

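The response of 3 Hox genes to 50 µM ZnSO4 differed between *Baf250a* KD and scr by the test of the difference of the log2 fold changes (edgeR, adjusted p under the threshold over all genes). That is 3 of 22 members, where 30.5% of all genes were called and 13.2% were called lower. All 3 were lower, so members were called lower about as often as genes in general. The difference, *Baf250a* KD minus scr, was -0.74 for *Hoxc6* (adjusted p = 0.00725), -1.35 for *Hoxc8* (adjusted p = 0.0158) and -0.45 for *Hoxa10* (adjusted p = 0.0242). Without the library of 495778 counts (*Baf250a* KD, Zn, replicate 2) the values were -0.79, -1.43 and -0.46 (adjusted p = 0.00554, 0.0133 and 0.0247), so they then rest on 1 Zn library of that population. Over the fits that each left out 1 library, the differences of *Hoxc6*, *Hoxc8* and *Hoxa10* came as near to 0 as -0.45, -0.54 and -0.37. *Hoxc5* had a like difference of -1.25 and an adjusted p of 0.05, and was not called.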

How the results depend on the processing

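Counts of called Hox genes in untreated *Baf180* KD and *Baf250a* KD, and over all treatments in each KD, stayed within 1.5 times the reported count under every alternative that kept all libraries. The count for untreated *Brd9* KD (2) was 0 with DESeq2, 1 with a mean count of at least 10 and 5 with the GC and length offset. *Baf180* KD against *Brd9* KD (10) gave 6 with that offset. Among metal responses, scr with Zn (0) gave 1 in the fit of all 24 libraries, *Baf180* KD with Cu (4) gave 7 with the GC offset, *Baf250a* KD with Zn (4) gave 0 with DESeq2 and 0 in the fit of 24, and *Brd9* KD with Cu (0) gave 1 with all genes kept. Among differences from scr, *Baf180* KD with Cu (0) gave 1 with all genes kept, *Baf180* KD with Zn (0) gave 1 with DESeq2, RLE, all genes or a mean of at least 10 and 2 with the GC offset, and *Baf250a* KD with Zn (3) gave 5 with a mean of at least 10 and 7 with the GC offset. The cause of these shifts was not tested.

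Leaving out 1 library at a time, with a lone library assumed to vary like the others, gave 5 to 10 calls in untreated *Baf180* KD, 6 to 11 in *Baf250a* KD and 0 to 3 in *Brd9* KD, and 4 to 8 in *Brd9* KD over all treatments. It gave 0 to 1 for scr with Zn, 0 to 4 for *Baf180* KD with Cu and 0 to 5 for *Baf250a* KD with Zn, and for the differences from scr 0 to 1 for *Baf180* KD with Cu, 0 to 1 with Zn and 1 to 4 for *Baf250a* KD with Zn.

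In the untreated comparisons signs turned only for members that were not called. In *Baf180* KD the log2 fold change of *Hoxc11* was 0.15 with the GC offset and -0.08 to 0 without a library, that of *Hoxc12* 0.24 with the offset and -0.26 to 0.11 without a library, and that of *Hoxc13* -0.03 to 0.4 without a library. In *Baf250a* KD *Hoxc10* was 0 with DESeq2 and RLE, 0.05 with all genes, 0.16 with the offset and -0.11 to 0.09 without a library, and *Hoxc11* 0.07 with the offset. In *Brd9* KD *Hoxa10* was -0.03 to 0.11, *Hoxa11* -0.01 to 0.14 and *Hoxc13* -0.17 to 0.24 without a library, *Hoxc13* 0 in the fit of 24 and *Hoxc10* 0.13 with the offset.

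The replicate numbers are shared between groups, but no label ties them to a batch. The deviations of same-numbered untreated libraries from their group means correlated with those of scr at -0.13, -0.02 and -0.14 in *Baf180*, *Baf250a* and *Brd9* KD. Over all pairs of groups the correlation ran from -0.18 to 0.39 and was over 0.1 in 30 of 66, and within *Baf180* KD it was 0.13, 0.25 and 0.15. With 2 replicates a group this neither shows nor excludes a shared batch, so the fits without the block were kept. With the replicate number as a block the counts were 11, 12 and 2 in untreated *Baf180*, *Baf250a* and *Brd9* KD, 7 for *Baf180* KD with Cu and 5 for the difference of *Baf250a* KD and scr with Zn. At 2 libraries a group, members near 0 CPM rest on a few counts, and the library of 495778 counts holds 165 Hox counts in all.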
